A study of Mus musculus with 2 samples.

Results

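The genes described here are 8 that build or bind the contacts between the cells lining blood vessels: Cldn5, Ocln, Tjp1, F11r, Jam2, Esam, Cdh5 and Pecam1. They were chosen by symbol, with earlier results of these data known. All 8 were found among the 22480 gene symbols of both count tables. RNA molecules were counted in single cells of mouse spinal cord as unique molecular identifiers (UMIs), in 1 library of cord 3 days post injury (3 dpi) and 1 of sham cord. Each library pooled C57BL/6 mice of 8 weeks, 5 males with 5 females, and cells came from an 8 mm piece of cord around the injury site. The sources used here do not state what kind of injury was made. Each group was 1 library, so no test was possible, and injury, library batch and differences between the pools of mice cannot be told apart.

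Endothelial cells of the spinal cord form a barrier in which neighbouring cells are sealed by tight junctions and held by adherens junctions. Claudin-5 (Cldn5) and occludin (Ocln) cross the membrane in the tight junction strands, and ZO-1 (Tjp1) is the scaffold that ties the strands to actin. The junctional adhesion molecules JAM-A (F11r) and JAM-B (Jam2) and the related ESAM (Esam) bind across the cleft. VE-cadherin (Cdh5) is the cadherin of endothelial adherens junctions, and PECAM-1 (Pecam1, CD31) sits at cell borders, where leukocytes cross.

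The 3 dpi library held 149291783 UMIs in 13594 barcodes and the sham library 76889038 UMIs in 10138 barcodes, and 39 barcode sequences occurred in both. Cells were clustered without the 8 genes or the junction gene lists used below, and the endothelial-like class was named from 14 other markers, all of them detected in both libraries. The class held 404 of 12108 kept cells at 3 dpi (3.34%) and 1414 of 9306 in sham (15.2%). Different clusters made it up: 380 of its 3 dpi cells lay in cluster 19, with 4 sham cells, and 24 lay in cluster 3, with 1410 of its sham cells. Median depth was 14084.5 UMIs per endothelial-like cell at 3 dpi and 3225 in sham, against 9135 and 7488 in oligodendrocyte-like cells. Ribosomal protein genes took 24.5% of endothelial-like UMIs at 3 dpi and 10.1% in sham, and their part in the CPM differences was not tested. Summed over the 14 endothelial markers, the level was 6180 UMIs per 1000000 of the class (CPM) at 3 dpi and 18103 CPM in sham. Levels below are CPM of the endothelial-like class unless another class is named. They are not divided by gene length, since each molecule is read from its 3′ end, and different genes are not ranked by level. Brackets hold 95% intervals that cover counting error alone and leave out the spread between cells and mice.

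Both tight junction strand genes and Jam2 took a smaller part of endothelial-like RNA at 3 dpi than in sham, by 2.77 to 5.23-fold. Cldn5 stood at 2717 CPM [2680 to 2755] at 3 dpi and 8766 CPM [8690 to 8842] in sham, 3.23-fold lower [3.17 to 3.28]. Ocln stood at 52.0 CPM [46.9 to 57.4] at 3 dpi and 272 CPM [259 to 286] in sham, 5.23-fold lower [4.68 to 5.86]. Jam2 stood at 113 CPM [105 to 121] at 3 dpi and 312 CPM [298 to 327] in sham, 2.77-fold lower [2.55 to 3.01]. The counting intervals of the libraries did not overlap for these 3 genes, nor for Tjp1, Esam and Cdh5 below, so this does not set the 3 apart. The share of all measured genes without overlap was not counted.

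The scaffold gene Tjp1 and the adhesion gene Esam were lower by smaller amounts. Tjp1 had 246 CPM [235 to 258] at 3 dpi and 412 CPM [396 to 429] in sham, 1.67-fold lower [1.57 to 1.78]. Esam had 630 CPM [612 to 648] at 3 dpi and 906 CPM [882 to 931] in sham, 1.44-fold lower [1.38 to 1.496].

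Cdh5, F11r and Pecam1 lay within 1.26-fold of their sham levels. Cdh5, the cadherin of the group, had 626 CPM [608 to 644] at 3 dpi and 496 CPM [478 to 514] in sham, 1.26-fold higher [1.20 to 1.32]. F11r had 170 CPM [161 to 180] at 3 dpi and 186 CPM [175 to 198] in sham, 1.09-fold lower with a ratio interval of 0.842 to 0.992. Pecam1 had 667 CPM [649 to 686] at 3 dpi and 671 CPM [650 to 692] in sham, a ratio of 0.995 [0.954 to 1.04].

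A gene was counted as higher or lower from a ratio of 2-fold, taken after adding 10 CPM to each side, and as measured where either library reached 20 CPM. This is a rule of size and no test. By this rule 3 of the 8 genes (Cldn5, Ocln and Jam2) were lower at 3 dpi, against 14.2% of the 7083 genes measured in the class. None of the 8 was higher, against 8.27% of all measured genes, and 22.4% of those were past 2-fold in either direction. The median log2 ratio of 3 dpi over sham was -0.62 for the 8 genes and -0.27 for all measured genes, whose middle 50% ran from -0.70 to 0.25. Median-of-ratios scaling, which sets the typical gene at no change, moved every log2 ratio up by 0.33. Under it Cldn5, Ocln and Jam2 stood at -1.36, -1.85 and -1.06, Tjp1 and Esam at -0.39 and -0.19, and Cdh5 at 0.66. F11r and Pecam1, at -0.12 and -0.01 in CPM, turned to the other side, at 0.21 and 0.32.

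**Figure D1:**
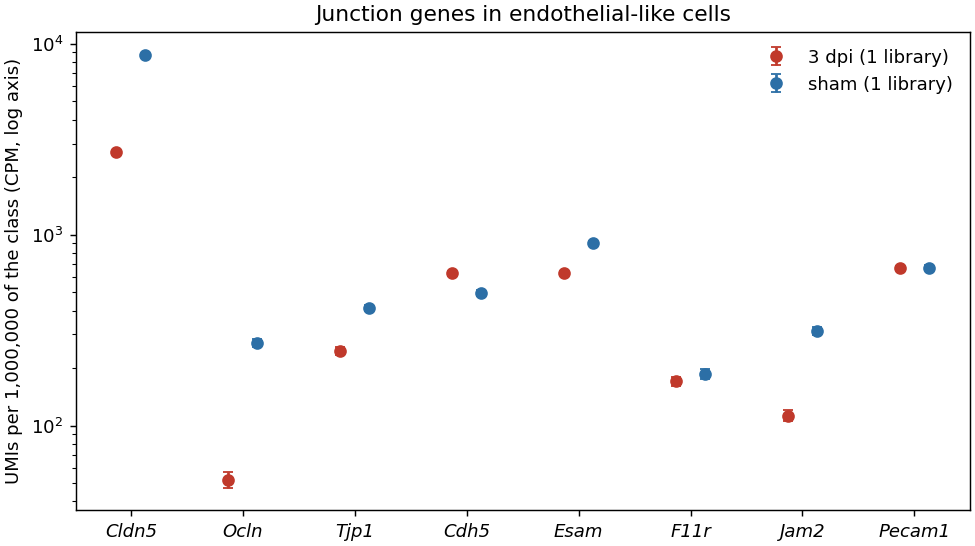
Level of each of the 8 genes in endothelial-like cells (UMIs per 1000000 of the class, log axis), 3 dpi in red left of sham in blue, 1 library each, with 95% counting intervals where they are wider than the point. Ocln shows the widest gap, 52.0 against 272 CPM, while the Pecam1 points lie level at 667 and 671 CPM.

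On the scale of UMIs per cell, which does not correct for depth, 7 of the 8 genes were higher at 3 dpi. Endothelial-like cells held a mean of 50.2 Cldn5 UMIs at 3 dpi and 36.4 in sham, 2.08 and 1.30 UMIs of Jam2, and 11.6 and 2.06 UMIs of Cdh5. Ocln alone was lower on this scale as well as in CPM, with 0.960 UMIs per cell at 3 dpi and 1.13 in sham. Whether 3 dpi cells held more RNA or their library was read more deeply was not tested, so a lower CPM here is a smaller part of the RNA counted and says nothing of molecules per cell.

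The share of positive cells was compared with every cell thinned to 2000 UMIs, which left out 27 shallower cells of 404 at 3 dpi and 228 of 1414 in sham. Cldn5 was found in 93.4% [90.4 to 95.7] of thinned cells at 3 dpi and in all 1186 thinned sham cells. Ocln was found in 12.5% [9.31 to 16.2] of cells at 3 dpi and 39.6% [36.8 to 42.5] in sham. Jam2 was found in 24.1% [19.9 to 28.8] at 3 dpi and 45.2% [42.3 to 48.1] in sham. For these genes the shares thus differed in the same direction as the CPM.

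Tjp1 was positive in 38.5% of thinned cells at 3 dpi and 54.7% in sham, Esam in 70.0% and 84.8%, and Pecam1 in 67.4% [62.4 to 72.1] and 74.6% [72.0 to 77.1]. The Pecam1 intervals touch, and thinned to 1000 UMIs its shares were 48.5% in both libraries. Cdh5 was positive in 64.2% [59.1 to 69.0] of cells at 3 dpi and 59.6% [56.8 to 62.4] in sham, so the intervals overlap. F11r was positive in 36.9% [31.99 to 41.96] at 3 dpi and 30.4% [27.7 to 33.1] in sham, but thinned to 1000 UMIs it stood at 14.9% and 19.2%, so no order is read from it.

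Without thinning the shares at 3 dpi and in sham were 96.8% and 99.8% for Cldn5, 48.8% and 60.3% for Ocln, and 64.9% and 64.1% for Jam2. They were 79.7% and 70.4% for Tjp1, 94.1% and 92.2% for Esam, 79.7% and 49.2% for F11r, 91.8% and 75.8% for Cdh5, and 93.3% and 85.8% for Pecam1. For 6 of the 8 genes the unthinned share was thus the higher one at 3 dpi, where cells were deeper.

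Oligodendrocyte-like cells, which should lack the endothelial genes, were read as a guide to the level that free RNA in the droplets can give. At 2000 UMIs, Cldn5 was found in 0.221% of them at 3 dpi and 2.89% in sham. Ocln was found in 0 of 1358 at 3 dpi and in 0.0963% in sham. For the 0, 3 counts would be 0.221% of cells with a UMI, and the upper Clopper-Pearson limit is 0.271%. Thinning was a random draw made once per depth, and without it 3 of 1368 oligodendrocyte-like cells at 3 dpi had Ocln. Cdh5, Esam, F11r, Jam2 and Pecam1 reached at most 1.13% in either library. Tjp1 was the exception, at 15.8% at 3 dpi and 17.2% in sham. Microglia-like cells at 2000 UMIs gave higher shares, with Cldn5 in 0.672% at 3 dpi and 4.07% in sham. Their Ocln shares were 0.119% and 0.553%, so the oligodendrocyte-like level is not an upper limit.

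**Figure D2:**
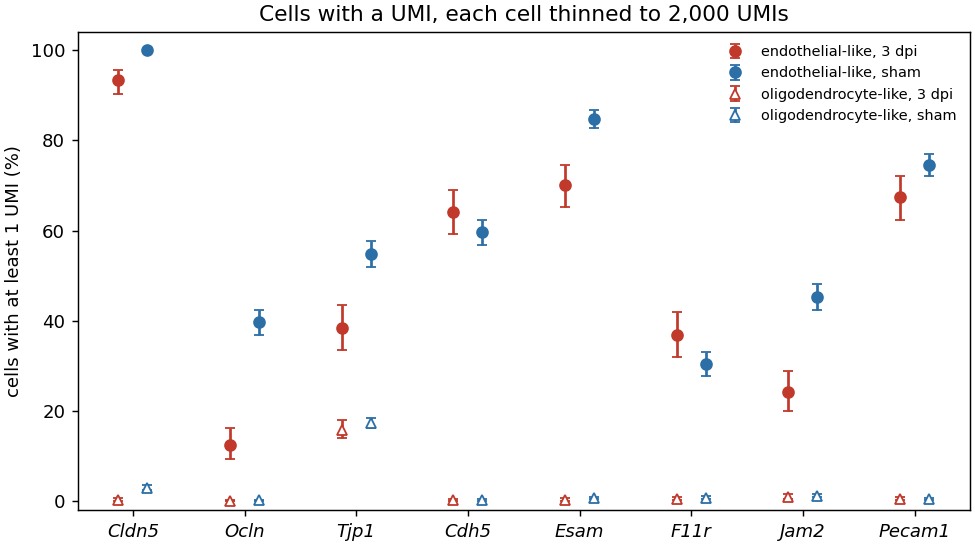
Percentage of cells with at least 1 UMI of each gene after thinning to 2000 UMIs, 3 dpi in red left of sham in blue, in endothelial-like cells (circles) and oligodendrocyte-like cells (triangles), with 95% Clopper-Pearson intervals. The endothelial shares of Ocln (12.5% and 39.6%) and Jam2 (24.1% and 45.2%) lie furthest apart.

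Counted per cell, which draws on the same UMIs as the shares above, fewer of the 8 genes were found at once at 3 dpi. Thinned endothelial-like cells had a median of 4 of the 8 genes at 3 dpi and 5 in sham, and 6 or more were found in 15.4% [11.9 to 19.4] of cells at 3 dpi and 31.96% [29.3 to 34.7] in sham. Cldn5 and Ocln were found together in 12.2% of cells at 3 dpi and 39.6% in sham, and Cldn5 with Tjp1 in 35.8% and 54.7%. Since all thinned sham cells had Cldn5, the sham values are the shares of Ocln and Tjp1 themselves and add no result. The lower Cldn5 level was spread over the class: the 10th, 50th and 90th percentiles of Cldn5 were 1, 6 and 16 UMIs per thinned cell at 3 dpi and 9, 18 and 28 in sham. The median 3 dpi cell was below the 10th percentile of sham cells.

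Sub-clusters of the endothelial-like cells, built without the 8 genes and named from vessel segment markers, held almost entirely cells of 1 library. Cells of 3 dpi formed a venous-like group (115 cells), a tip- or angiogenic-like group (114) and a pair of cycling groups (99 and 49). Sham cells formed a pair of capillary-like groups (405 and 350), a pair of arterial-like groups (352 and 115) and smaller unnamed ones. Some names were close calls by mean log2 marker level over the median sub-cluster. The larger arterial-like group had 1.01 for arterial and 0.757 for capillary markers. The smaller capillary-like group had 0.866 for capillary and 0.462 for venous markers. The smaller arterial-like group was clearer, at 3.03 against 0.025 for the next set. Segment and injury therefore cannot be told apart here.

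Among these 3 dpi groups, Cldn5 was highest in the venous-like cells, at 5298 CPM [5178 to 5421]. It stood at 2215 CPM [2145 to 2286] in the tip- or angiogenic-like cells and at 2085 and 1703 CPM in the cycling groups. All sham sub-clusters with a segment name were above these, from 7754 CPM in the smaller arterial-like group to 10398 CPM in the larger capillary-like group. Median depth within 3 dpi ran the other way, from 8938 UMIs per cell in the venous-like group through 12010.5 in the tip- or angiogenic-like group to 24420 and 34009 in the cycling groups.

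Ocln and Jam2 were also highest in the venous-like group. Ocln had 102 CPM [85.9 to 120] in the venous-like cells and 29.99 to 43.3 CPM in the other 3 dpi groups, whose neighbouring intervals overlap. In the named sham groups Ocln ran from 254 to 315 CPM. Jam2 had 183 CPM in the venous-like cells, 74.4 CPM in the tip- or angiogenic-like cells and 84.5 and 114 CPM in the cycling groups, against 275 to 368 CPM in the named sham groups.

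Tjp1 was at a sham level in the venous-like cells of 3 dpi, with 400 CPM [367 to 434] there and 365 to 461 CPM in the named sham groups. It had 152 CPM in the tip- or angiogenic-like cells and 224 and 226 CPM in the cycling groups. Esam was 738 CPM [694 to 785] in the venous-like cells and 513 to 693 CPM in the other 3 dpi groups, against 722 CPM in the smaller arterial-like sham group and 923 to 1096 CPM in the other named sham groups.

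Cdh5 and Pecam1 had a different order and were highest in the tip- or angiogenic-like cells. Cdh5 stood there at 837 CPM [795 to 882] and at 526 to 597 CPM in the other 3 dpi groups, against 459 to 573 CPM in the named sham groups. Pecam1 stood there at 991 CPM [945 to 1039] and at 543 to 599 CPM in the other 3 dpi groups, against 668 to 744 CPM in the named sham groups. The near-equal Pecam1 level of the whole class thus joined a 3 dpi group above every named sham group with 3 groups below them. F11r ran from 137 to 214 CPM within 3 dpi and from 181 to 242 CPM in the named sham groups.

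A small set of 3 dpi cells had Cldn5 and Ocln near the sham level. The 24 cells of 3 dpi in the mostly sham cluster 3 (5.94% of the class at 3 dpi, median depth 3053 UMIs) had 8991 CPM of Cldn5 [8402 to 9611], against 8769 CPM in its 1410 sham cells. Their Ocln was 260 CPM [168 to 384], against 272 CPM, and their Jam2 was also 260 CPM [168 to 384], against 313 CPM. Tjp1 stood at 634 CPM [485 to 814] in the 24 cells and 413 CPM in the sham cells, and Pecam1 at 520 CPM [386 to 685] and 671 CPM. Plvap, the gene of fenestral diaphragms, had 1 UMI in these cells and Pdlim1 had none. None of their barcode sequences occurred in the sham library. Their median depth was close to the 3223.5 UMIs of the sham cells of that cluster, and Hbb-bs stood at 4376 CPM, from 8.33% of the cells; the part of either was not tested.

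**Figure D3:**
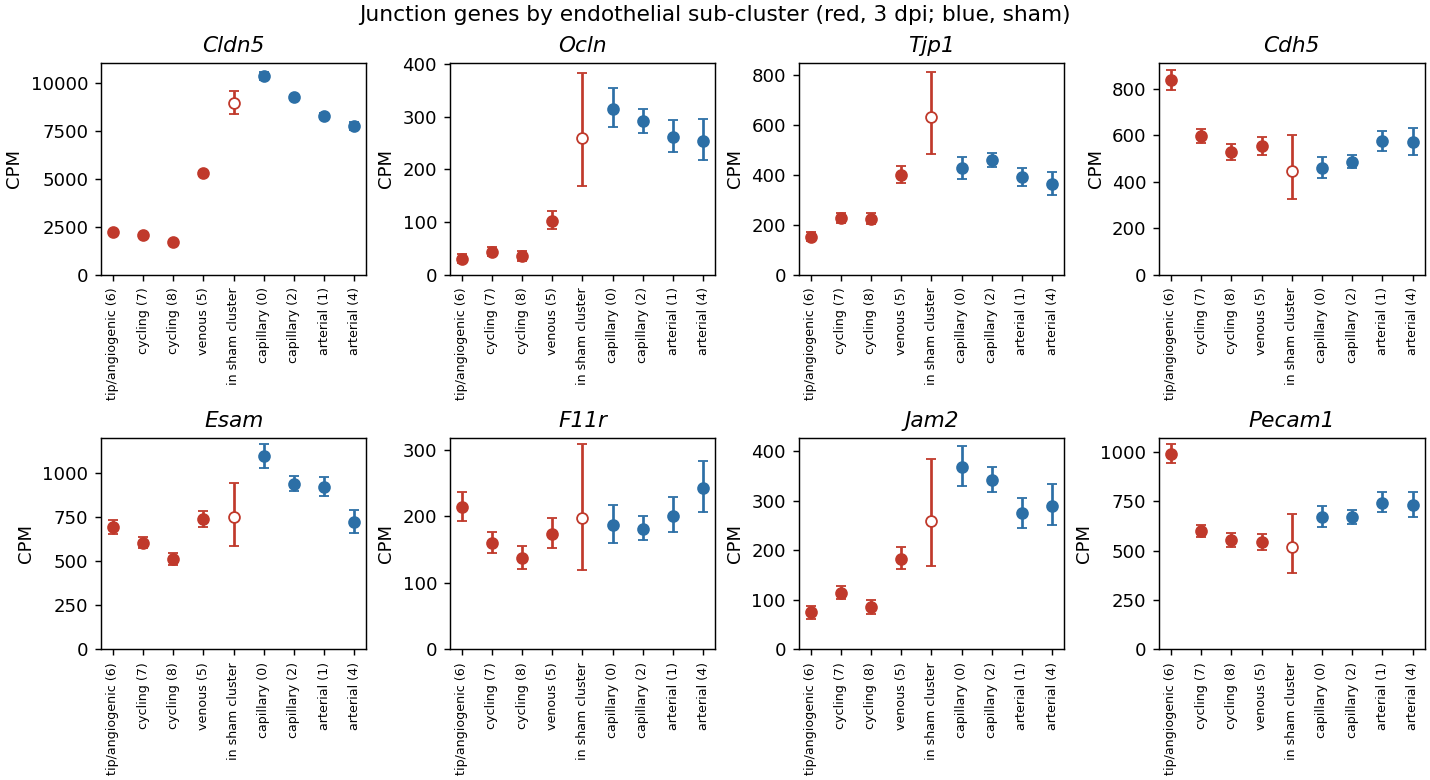
Level (CPM) of each gene by endothelial sub-cluster, with 3 dpi groups in red left of sham groups in blue and 95% counting intervals; the open red point is the 24 cells of 3 dpi in the mostly sham cluster. Cldn5, Ocln and Jam2 are highest within the red points in the venous-like group and at the open point, while Cdh5 (837 CPM) and Pecam1 (991 CPM) peak in the tip- or angiogenic-like group.

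Markers of other cell types were detected in the class at different levels in the libraries. Whether this RNA came from other cells or was made by the endothelial-like cells themselves was not tested. Of the oligodendrocyte markers, 9 of 9 were detected in both, with a summed level of 472 CPM at 3 dpi and 3844 CPM in sham. Erythroid markers (6 of 6 detected in both) summed to 669 and 50.8 CPM. The globin gene Hbb-bs was among the leading genes of the venous-like and tip- or angiogenic-like groups. It was also among those of the smaller arterial-like group, which held 115 sham cells and 5 of 3 dpi. Pericyte markers summed to 666 and 975 CPM, fibroblast markers to 197 and 9.20 CPM, and microglia markers to 294 and 239 CPM. Monocyte/macrophage markers summed to 1506 CPM at 3 dpi and 751 CPM in sham with 4 of 10 at 0, neutrophil markers to 119 and 4.09 CPM with 4 of 9 at 0 in sham, and border-associated macrophage markers to 103 and 0.852 CPM with 5 of 7 at 0 in sham. Subtracting 5% of each cell's UMIs as free RNA kept Cldn5, Ocln and Jam2 the genes past 2-fold. So did leaving out the sham sub-clusters led by oligodendrocyte or microglia genes, at -1.72 for Cldn5 and -2.22 for Ocln.

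Several classes and clusters outside the endothelium carried 1 or more of the genes well above the free RNA level. As a guide, free RNA from endothelial cells should keep the genes in the ratio to Cldn5 that endothelial-like cells of the same library have. Cldn5 itself was 3.36 to 13.9 CPM in the other named classes at 3 dpi, 16.7 to 28.2 CPM in sham glia and 155 CPM in sham pericyte- or smooth muscle-like cells. Ocln stayed at or under 7.46 CPM in every other class of at least 50 cells, apart from cluster 20. This unnamed sham cluster of mixed pericyte and endothelial leading genes had 202 CPM of Ocln and 5885 CPM of Cldn5. The 7.46 CPM lay in a 3 dpi cluster with ependymal and astrocyte markers (cluster 24). This cluster had 12 Ocln and 8 Cldn5 UMIs, 78.4 times the endothelial ratio. Fibroblast-like cells of 3 dpi had 23 Ocln UMIs, 0.211 per Cldn5 UMI, against 0.0191 in endothelial-like cells. Both lay above the guide, on few UMIs. In sham pericyte- or smooth muscle-like cells the ratio was 0.937 times the endothelial one. The source of this Ocln was not tested.

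F11r had its highest level outside the endothelium, in microglia-like cells. These had 79.9 CPM [77.1 to 82.9] at 3 dpi and 480 CPM [465 to 494] in sham, 6.00-fold lower [5.73 to 6.29], in different clusters of the class (7, 10 and 11 at 3 dpi, mostly 6 and 8 in sham). The sham microglia-like level was above that of sham endothelial-like cells, 186 CPM, and per Cldn5 UMI it was 994 times the endothelial ratio. At 2000 UMIs, F11r was found in 17.1% of microglia-like cells at 3 dpi and 62.5% in sham. Monocyte/macrophage-like cells of 3 dpi had 30.6 CPM, and their cluster 18, led by MHC class II genes, had 113 CPM.

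Jam2 was at a similar level in oligodendrocyte precursor-like cells of both libraries, 120 CPM [114 to 127] at 3 dpi and 124 CPM [107 to 142] in sham. At 3 dpi this overlapped the endothelial-like level of 113 CPM [105 to 121]. Microglia-like cells had 57.6 CPM of Jam2 at 3 dpi and 68.4 CPM in sham. An unnamed cluster of 3 dpi cells with ependymal and astrocyte markers (cluster 24) had 65.3 CPM.

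Tjp1 was the most widely spread of the 8 genes. Oligodendrocyte-like cells had 92.8 CPM at 3 dpi and 93.7 CPM in sham, a ratio of 0.991 [0.932 to 1.05], and precursor-like cells had 81.4 and 71.7 CPM with overlapping intervals. Microglia-like cells had 38.2 CPM at 3 dpi and 106 CPM in sham, 2.78-fold lower [2.56 to 3.02]. Fibroblast-like cells of 3 dpi had 75.5 CPM and pericyte- or smooth muscle-like cells of sham 346 CPM [313 to 383].

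Esam, Cdh5 and Pecam1 had lower levels outside the endothelium as well. Esam stood at 453 CPM [415 to 495] in sham pericyte- or smooth muscle-like cells, with 2.93 Esam UMIs per Cldn5 UMI, against 0.103 in sham endothelial-like cells, and at 11.9 CPM in 3 dpi fibroblast-like cells, 5.90 times the endothelial ratio. Cdh5 stood at 94.8 CPM [89.5 to 100.3] in 3 dpi fibroblast-like cells, with 10.9 Cdh5 UMIs per Cldn5 UMI, against 0.230 in 3 dpi endothelial-like cells. Both fibroblast-like clusters carried it, at 81.2 and 129 CPM. Pecam1 stood at 84.7 CPM [53.1 to 128] in a 3 dpi cluster with B and T cell markers (cluster 25), where Cldn5 had no UMI. It stood at 9.24 CPM in 3 dpi monocyte/macrophage-like cells and at 6.46 CPM at 3 dpi and 15.1 CPM in sham in microglia-like cells, 6.70 to 9.82 times the endothelial ratio. The pericyte-like class had 10 cells at 3 dpi and the fibroblast-like class 18 in sham, so neither was compared between libraries.

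**Figure D4:**
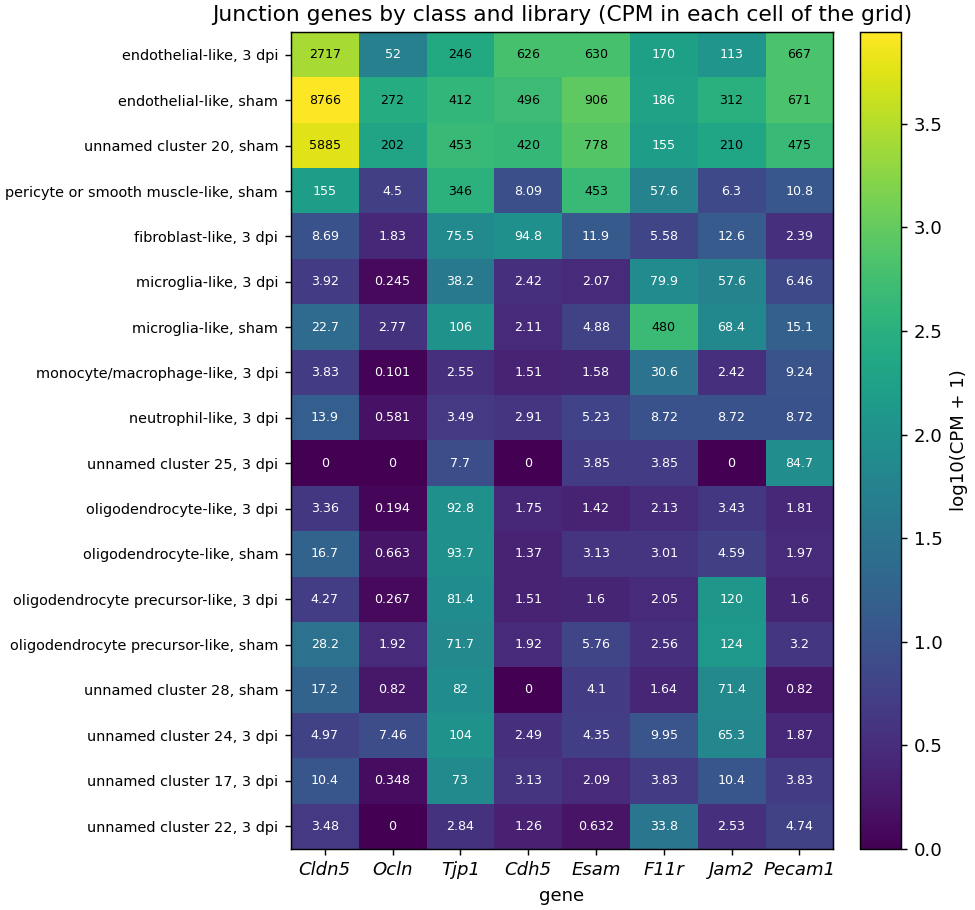
Level (CPM, printed in each field; colour on a log10 scale of CPM + 1) of each gene in every class or unnamed cluster of at least 50 cells in a library, with 3 dpi above sham. Cldn5 and Ocln stand out in the endothelial-like rows and in the mixed cluster 20, whereas F11r is highest in sham microglia-like cells (480 CPM) and Tjp1 is spread over most rows.

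Other junction genes were read from 7 lists, by the same 2-fold rule and against the same shares of all measured genes. The lists were chosen with earlier results of these data known, so their counts and medians are descriptions and no independent support. Counts with median-of-ratios scaling stand beside those in CPM; under it 13.3% of all measured genes were higher and 7.71% lower. Each list median kept its side of 0. Of the other tight junction genes, 14 of 31 were measured, with 6 lower at 3 dpi (3 with median-of-ratios scaling), none higher and a median of -0.86. Esyt2, counted among the 6 because it is on the list, is not an established tight junction gene. It stood at 57.3 CPM at 3 dpi and 388 CPM in sham. Amotl2, an angiomotin-like scaffold gene, stood at 19.96 and 82.3 CPM. Cldn11 stood at 22.9 and 118 CPM and is an oligodendrocyte marker, at 3.18% of its highest level among the classes.

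Of 14 measured adherens junction genes, 4 were lower (3 with median-of-ratios scaling) and 2 higher, with a median of -0.65. Ptprb, the phosphatase VE-PTP that binds VE-cadherin, had 379 CPM at 3 dpi and 1202 CPM in sham, 3.17-fold lower [3.04 to 3.31]. Ptprm had 44.1 and 144 CPM and Limch1 87.7 and 238 CPM. The cadherin gene Cdh13 was higher, at 66.2 CPM and 14.6 CPM, as was Nectin2, at 42.9 and 13.8 CPM.

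Of 11 other border adhesion genes, 1 was lower and 1 higher, with a median of -0.45. Bsg, which encodes basigin, had 2937 CPM at 3 dpi and 18086 CPM in sham, 6.16-fold lower [6.07 to 6.25]. Mcam, the adhesion molecule CD146, had 154 CPM at 3 dpi and 12.8 CPM in sham, 12.1-fold higher [9.54 to 15.4], and was also one of the markers that named the tip- or angiogenic-like group. Among the gap junction genes, the connexin-37 gene Gja4 was higher, at 60.9 and 12.1 CPM. Gjc3, a connexin gene of oligodendrocytes, was lower, at 1.47 and 25.04 CPM, where the summed level of oligodendrocyte markers also differed.

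Of 20 junction signalling and stability genes, 5 were lower (2 with median-of-ratios scaling, without S1pr1) and 1 higher, with a median of -0.54. S1pr1, the sphingosine-1-phosphate receptor that stabilises junctions, had 274 CPM at 3 dpi and 687 CPM in sham. Rapgef2 had 27.9 and 119 CPM and Rhob 477 and 1347 CPM. Plvap had 69.1 CPM at 3 dpi and no UMI in sham, at least 135-fold higher against a floor of 3 counts in the sham class, with 109.6-fold as the lower limit of the exact ratio interval.

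Of 27 barrier Wnt and endothelial transcription genes, 18 were lower (12 with median-of-ratios scaling) and none higher, with a median of -1.23. Ctnnb1 is on this list and on the adherens junction list, and was counted as lower in CPM in both. Reck, the Wnt7 co-receptor, had 6.43 CPM at 3 dpi and 77.0 CPM in sham, 11.98-fold lower. Foxq1 had 127 and 669 CPM, and Notum, which inactivates Wnt ligands, 4.69 and 53.7 CPM. Klf2 and Klf4, transcription factors induced by flow, belong to the list and are named here after their values were seen, at 1799 and 6265 CPM and at 588 and 2101 CPM.

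Of 19 genes that link junctions to actin, 3 were higher (7 with median-of-ratios scaling) and 1 lower, with a median of 0.32. Pdlim1 had 242 CPM at 3 dpi and 4.26 CPM in sham, 56.7-fold higher [38.3 to 87.9]. Moesin (Msn) had 949 and 363 CPM and alpha-actinin-1 (Actn1) 229 and 85.5 CPM, while the myosin light chain gene Myl12b was lower, at 299 and 837 CPM.

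**Figure D5:**
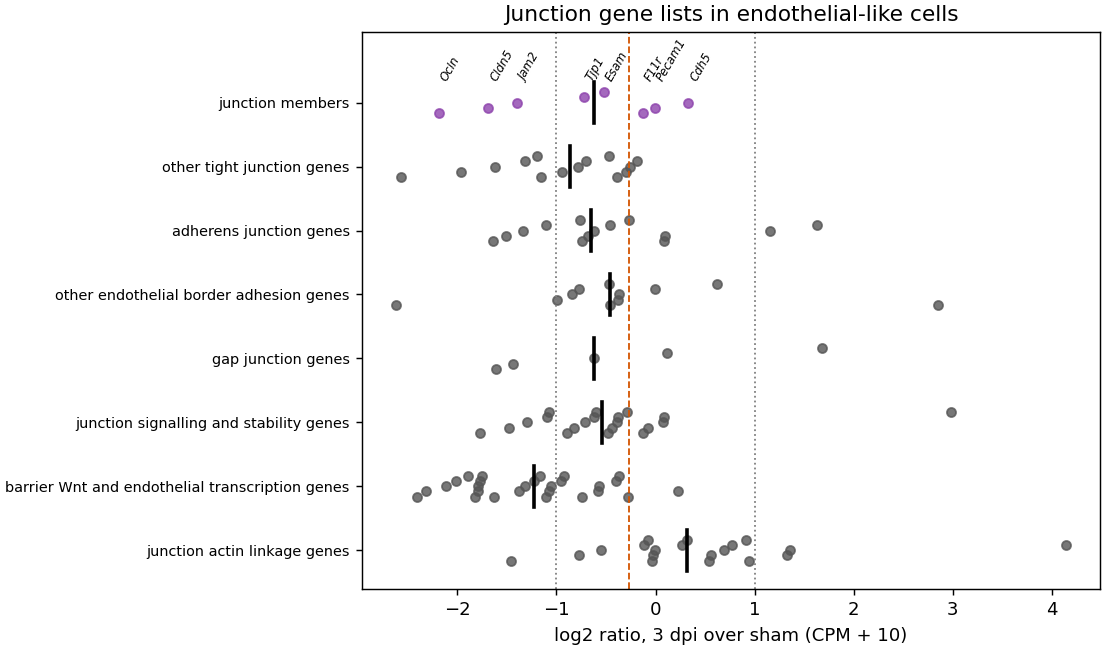
Log2 ratio of 3 dpi over sham (10 CPM added to both) of each measured gene of the 8 and of the 7 lists in endothelial-like cells, with a bar at each median, dotted lines at 2-fold and the dashed line at the median of all measured genes, -0.27. The barrier Wnt and transcription list lies furthest to the left (median -1.23) and the actin linkage list to the right (median 0.32).

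RefSeq promoter windows, 250 bases before to 50 after a gene start (GRCm38.p6), were found for 4 of the 8 genes, Cldn5, Ocln, Tjp1 and F11r; Jam2, Esam, Cdh5 and Pecam1 had no entry. The windows shown are those of both tight junction strand genes that were lower together and of F11r, which lay close to its sham level. They were read for short motifs of factor families on the Wnt and transcription list, on both strands. Capitals mark CACCC or its complement GGGTG, the core bound by KLF factors.
Cldn5 (chr16:18776597-18776896, plus strand): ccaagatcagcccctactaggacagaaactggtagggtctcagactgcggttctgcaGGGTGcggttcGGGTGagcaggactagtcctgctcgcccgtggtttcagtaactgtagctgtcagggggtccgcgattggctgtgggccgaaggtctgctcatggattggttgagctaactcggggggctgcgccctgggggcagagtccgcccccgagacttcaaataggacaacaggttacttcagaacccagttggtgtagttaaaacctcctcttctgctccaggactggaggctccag
Ocln (chr13:100552669-100552968, minus strand): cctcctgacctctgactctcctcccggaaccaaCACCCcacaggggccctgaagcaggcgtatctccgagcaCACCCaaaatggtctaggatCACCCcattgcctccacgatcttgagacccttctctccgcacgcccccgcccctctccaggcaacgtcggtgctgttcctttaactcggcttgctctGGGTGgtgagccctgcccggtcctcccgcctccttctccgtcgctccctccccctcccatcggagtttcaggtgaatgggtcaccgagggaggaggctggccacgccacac
F11r (chr1:171437311-171437610, plus strand): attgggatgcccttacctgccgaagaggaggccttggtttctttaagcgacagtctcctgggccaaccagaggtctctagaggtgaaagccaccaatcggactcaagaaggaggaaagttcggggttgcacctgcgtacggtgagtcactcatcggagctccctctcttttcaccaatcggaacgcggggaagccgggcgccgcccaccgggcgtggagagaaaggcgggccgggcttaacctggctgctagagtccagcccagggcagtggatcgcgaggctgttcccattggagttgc

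The Cldn5 window held the KLF core at 2 places, the Ocln window at 4 and the Tjp1 window at 2, and the F11r window at none. Of all 27025 promoter windows, 56.7% held it at least once, and a second Ocln window, further into the gene, held it at 1 place. The TCF/LEF core CTTTGA was in none of the windows of the 4 genes, against 16.2% of all windows, and neither the FOX core TGTTTA (13.4% of all windows) nor the SOX core ACAAT (31.6%) was found. The ETS core CGGAAG was in the Tjp1 window alone, and in 17.2% of all windows. These matches describe the letters of the windows and no binding was measured.

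The genes most like each of the 8 were read from Pearson's r of log2(CPM + 10) over 18 profiles of class and library, among 4980 genes. The profiles share libraries and depth, so r is a description. Cldn5 was most like Adgrf5 (r = 0.994), Flt1 (0.991) and Ptprb (0.988), and Adgrf5 had 322 CPM at 3 dpi and 976 CPM in sham. Ocln was most like Unc45b, Ushbp1 and Gata2 (r = 0.991 each), which had log2 ratios of -1.60, -1.95 and -1.75. Esam was most like Foxf2 (r = 0.995), Gpr4 and Emcn, and Pecam1 most like Icam2 (0.995), N4bp3 and She. Cdh5 was most like Bvht (0.976), Lsr and Podxl, and none of these was higher at 3 dpi, with log2 ratios of -0.42, -0.79 and -0.85.

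The widely spread genes had less close matches. F11r was most like Slco2b1 (r = 0.954), Pdgfb and Lmo2, Tjp1 most like Arl6ip5 (0.921), Arhgef12 and Ptprm, and Jam2 most like Tpd52l1 (0.837), B4galt4 and Abcg2. Among the 8 genes, r was highest between Cldn5 and Ocln (0.955) and lowest between Tjp1 and F11r (0.410).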

How the data were processed

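Cell Ranger and Seurat are named in the submitters' processing notes, with no version, beside GRCh38, a human build, although the symbols are mouse. No gene positions were taken from the files. The authors deposited raw UMI counts per gene symbol and barcode, with 0 mitochondrial rows; the sources used here do not say how cells were filtered before. Cells with at least 200 genes and 500 UMIs were used, and doublets were removed by similarity to simulated ones (0.8% per 1000 cells): 1476 (10.9%) at 3 dpi and 820 (8.10%) in sham.

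Each cell was scaled to 10000 UMIs and logged. 2000 variable genes, without the 8 genes, the 7 lists, ribosomal and sex-linked genes, gave 30 principal components, 15 neighbours and Leiden clusters at resolution 1.0. Classes, called X-like, come from rebuilt clusters and 18 fixed marker sets that hold none of the 8 genes. The lists' Pals1, Mllt4 and Cd99 were not matched by symbol and are not analysed here. UMIs were summed per class and library (7465952 endothelial-like UMIs at 3 dpi and 5870729 in sham), with exact Poisson, conditional and Clopper-Pearson intervals. With 1 library per group there is no p-value. The size rule and intervals were tested on simulated data. Of each list, up to 3 genes past 2-fold in each direction, by size of ratio and with at least 20 UMIs, are named. Scripts ran in Python 3.11.15 with numpy 2.4.6 and scipy 1.17.1 for intervals, pandas 2.3.3 for tables, scikit-learn 1.9.0 for components, igraph 0.11.9 with leidenalg 0.10.2 for clusters and matplotlib 3.10.9 for figures. The genes and lists were chosen with earlier results of these data known. Alternatives were scaling, pseudocount, cell filter, doublets, clustering, cell choice, free RNA, sex of origin and depth.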

Additional observations from a re-analysis of the deposited data

How the results depend on the processing

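The count of 3 lower and 0 higher of the 8 genes was the same in all settings but those that held both libraries to the same segment name or cluster. Those settings left few 3 dpi cells. It was 0 lower with capillary-like sub-clusters alone (11 cells of 3 dpi), with log2 ratios of -0.18 for Cldn5, -0.71 for Ocln and -0.93 for Jam2. It was also 0 lower with the mostly sham cluster alone (24 cells of 3 dpi), where the Cldn5 log2 ratio stood at 0.036, on the other side of 0. None of the settings with the same count thus held both libraries to sub-clusters of the same segment name or to the same cluster. The part of this, and whether injury changed the markers behind the names, was not tested. Over the other 16 settings, log2 ratios ran from -1.79 to -1.22 for Cldn5, from -2.36 to -1.78 for Ocln and from -1.48 to -1.06 for Jam2. They ran from -0.79 to -0.39 for Tjp1, from -0.62 to -0.19 for Esam and from 0.25 to 0.66 for Cdh5. F11r (-0.28 to 0.31) kept its sign in 13 of 16 and Pecam1 (-0.17 to 0.32) in 11. The median of -0.62 moved to -0.29 with median-of-ratios scaling, -0.56 in female-derived cells, -0.54 as a mean over cells, -0.29 with capillary-like sub-clusters alone, and, in settings chosen after seeing the data, to -0.46 without cycling groups, -0.53 with cells thinned to 2000 UMIs and -0.11 in the mostly sham cluster. Leaving out sub-clusters, counting cluster 20, thinning and the mostly sham cluster were chosen after seeing the data; the causes of these shifts were not tested. Of all measured genes, 943 were higher and 546 lower with median-of-ratios scaling, against 586 and 1003 in CPM; 1520 were lower with 1 CPM added; and 284 were higher and 468 lower of 2122 genes with a minimum of 100 CPM. No unnamed cluster of the clustering at resolution 1.0 had endothelial as its best class, so that setting gave no value. No paired analysis was possible because each group was 1 library, and no library could be left out. Depth limits Ocln most, with 388 UMIs in 404 cells at 3 dpi.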
